A study of Mus musculus with 2 samples.

Results

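Annotated transcripts made of a single exon, with no intron in their annotated model, were described in long-read RNA sequencing of the heart of mice of the strain B6CASTF1/J, all female and 14 days old. They were chosen by their annotation and read counts: both deposited tables had to list the transcript as annotated, with 1 exon and at least 1 read. Spike-ins and genes of the mitochondrial genome were left out. This gave 819 transcripts of 812 genes, out of 14583 annotated transcripts read in both libraries, of which 13751 were spliced and outside the mitochondrial genome. Because read counts chose the transcripts, their levels are descriptions. B6CASTF1/J is a first-generation hybrid of a common laboratory strain and a wild-derived one, and 2 µg of RNA and a set of spike-ins went into each library. Reads of both parental genomes were placed on 1 reference genome, and the part of this in the counts was not tested. There was 1 group with 2 libraries, replicates 1 and 2, and no treatment. The labels call them biological replicates, but name the animals differently in separate fields and once in the plural, so p-values cover counting error in these libraries only, and the spread between them may be technical.

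Most mouse genes are split by introns, and a transcript without one has usually arisen in one of a few ways. Some protein-coding genes have no intron, among them many transcription factors that respond quickly to signals, histones and receptors that couple to G proteins. A processed pseudogene is a copy of a spliced messenger RNA that was reverse transcribed and inserted elsewhere in the genome, so it lacks the introns of its source and can match it almost base for base. Other single-exon models describe long noncoding RNAs, introns kept in the RNA of a spliced gene, and small RNAs.

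Among the reads on single-exon transcripts, the largest share lay on near-identical copies, which took 1.04% and 1.17% of all reads of the libraries. Of the 819 transcripts, 255 matched a spliced protein-coding gene elsewhere with at least 95% identity over at least 90% of their length. Short stretches over an exon join show how close the copies are. All are written 5′ to 3′ from GENCODE M21 transcript sequences. In a spliced transcript the capitals mark the last base of one exon and the first base of the next. In a copy the capitals mark bases that differ from the spliced transcript. The set for Gapdh, a glycolytic enzyme, is shown because 13 copies of it were read in both libraries.

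Gapdh, bases 384 to 443 of Gapdh-201, chromosome 6, join of exons 3 and 4: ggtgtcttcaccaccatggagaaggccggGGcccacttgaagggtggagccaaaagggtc
Gm12671, chr4:91852319-91852378, minus strand: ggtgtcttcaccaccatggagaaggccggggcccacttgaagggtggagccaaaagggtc
Gm12033, chr11:20335663-20335722, minus strand: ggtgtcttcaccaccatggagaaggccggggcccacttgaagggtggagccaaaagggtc
Gm13394, chr2:28934259-28934318, minus strand: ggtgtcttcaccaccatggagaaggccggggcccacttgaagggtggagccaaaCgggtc

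Across these 60 bases the copies Gm12671 and Gm12033 were identical to the spliced form, and Gm13394 carried A55C, counted from 1 at the 5′ end of the stretch. Over their whole 1002 bases, Gm12671 had 0 mismatches to Gapdh and Gm12033 had 1. The next pairs are shown because they had the most reads on a copy or differed most between the libraries. Hspa8 is a constitutive heat shock chaperone, Cox7c a subunit of cytochrome c oxidase, Mpc1 a subunit of the mitochondrial pyruvate carrier, and Vcp an ATPase that extracts ubiquitylated proteins.

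Hspa8, bases 752 to 811 of Hspa8-201, chromosome 9, join of exons 3 and 4: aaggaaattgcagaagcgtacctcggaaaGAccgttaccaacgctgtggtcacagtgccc
Gm15459, chr5:5783115-5783174, minus strand: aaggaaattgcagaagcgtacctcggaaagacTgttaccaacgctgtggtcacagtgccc
Cox7c, bases 275 to 334 of Cox7c-203, chromosome 13, join of exons 1 and 2: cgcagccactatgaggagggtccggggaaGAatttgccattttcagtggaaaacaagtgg
Gm12338, chr11:75599850-75599909, minus strand: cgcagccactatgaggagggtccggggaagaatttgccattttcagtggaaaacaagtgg
Mpc1, bases 170 to 229 of Mpc1-208, chromosome 17, join of exons 1 and 2: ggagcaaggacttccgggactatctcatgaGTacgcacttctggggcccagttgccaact
Mpc1-ps, chr12:110858795-110858854, minus strand: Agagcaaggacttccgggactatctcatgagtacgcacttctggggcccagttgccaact
Vcp, bases 1782 to 1841 of Vcp-201, chromosome 4, join of exons 12 and 13: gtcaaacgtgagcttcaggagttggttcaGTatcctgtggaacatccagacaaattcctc
Vcp-rs, chrX:104346723-104346782, minus strand: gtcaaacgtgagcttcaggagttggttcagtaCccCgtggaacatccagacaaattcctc

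The stretches carried C33T in Gm15459, G1A in Mpc1-ps, and both T33C and T36C in Vcp-rs, while Gm12338 had none. Over the whole copy, Gm15459 differed from Hspa8 at 5 of 1941 bases and Mpc1-ps from Mpc1 at 1 of 330. Vcp-rs differed from Vcp at 8 positions and by 15 gap bases, over 2406 bases, and Gm12338 matched Cox7c at all 192. Genome positions are on mm10, 1-based.

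The heart libraries held 858071 and 926560 reads outside spike-ins and the genomic class, the label for reads inside a gene that follow none of its splicing patterns. Levels are reads per 1000000 reads of these totals (CPM), so that 1 read was worth 1.17 and 1.08 CPM and a count of 0 allows up to 3.50 and 3.24. A long read counts 1 molecule whatever its length, and counts were not divided by length. All 10 heart muscle markers had at least 3 reads in each library, at a summed 48238 and 49281 CPM. Of 5 skeletal muscle markers, 3 were at 0 in both libraries and the other 2 had at least 3 reads in each, with a list sum of 11237 and 10422 CPM. The liver markers had 0 and 1 read. A pair of lung markers summed to 132 CPM in replicate 1 and 8.63 CPM in replicate 2, and their part in the differences between the libraries was not tested.

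Single-exon transcripts took 2.03% of the reads in replicate 1 (95% exact Clopper-Pearson interval 2.00 to 2.06%) and 2.12% in replicate 2 (2.09 to 2.15%), a mean of 2.07% ± 0.069 (SD, n = 2). The intervals cover counting error only and do not overlap. The reads were concentrated: the 25 highest transcripts held 41.8% and 39.8% of them, and the 100 highest held 71.1% and 71.3%. The median transcript reached 4.99 CPM, against 9.56 CPM for annotated spliced transcripts read in both libraries. The median annotated length was 1428 bases against 2471. At the edge of the rule, 104 transcripts had exactly 1 read in each library, and a further 796 annotated single-exon transcripts, left out, had reads in 1 library only, 623 of them a single read.

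GENCODE M21 holds 26771 single-exon transcripts outside the mitochondrial genome, and 3.06% of them were read in both libraries. The share was 10.2% for protein-coding models (286 of 2812), 4.84% for retained introns (113 of 2334) and 2.46% for processed pseudogenes (221 of 8992). It was 1.04% for microRNA models (23 of 2207). Among single-exon models of any label that met the limits for a copy of a spliced gene, 6.94% were read in both (255 of 3674).

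**Figure D1:**
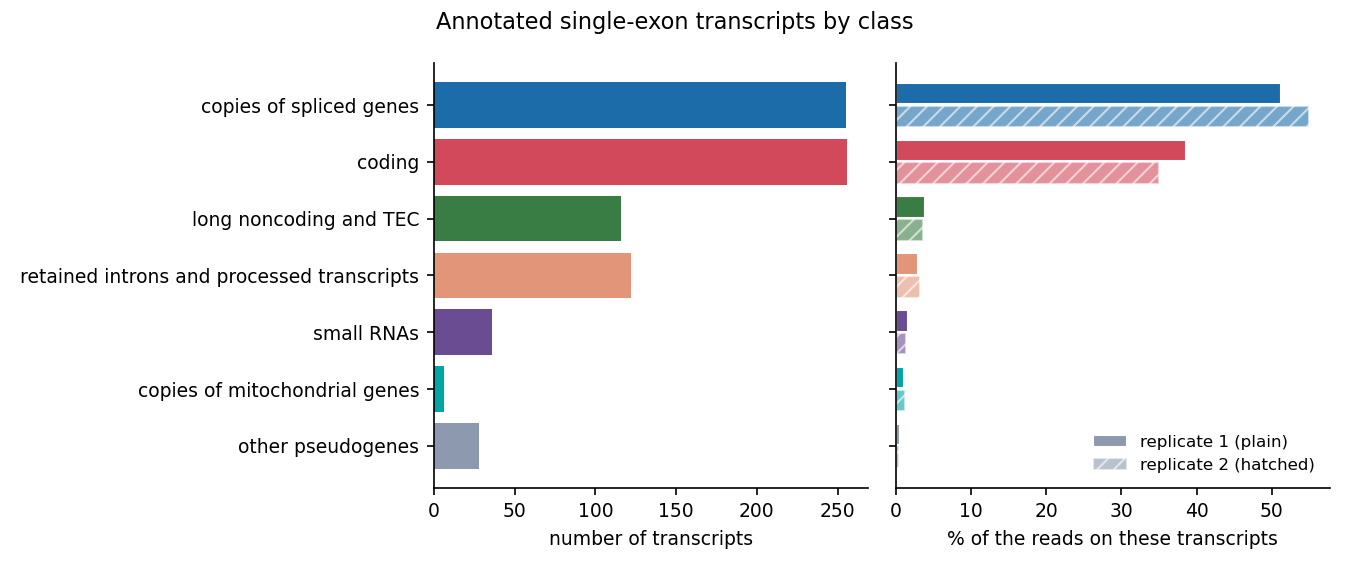
Left, the number of single-exon transcripts in each class. Right, each class's percent of the reads on these transcripts, in replicate 1 (plain bars) and replicate 2 (hatched bars). Copies of spliced genes and coding transcripts are nearly equal in number, but copies hold 51.2% and 54.9% of the reads and coding transcripts 38.5% and 35.0%.

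Sorted into classes that do not overlap, the 255 copies of spliced genes held 51.2% of the reads on single-exon transcripts in replicate 1 and 54.9% in replicate 2. The 256 other coding transcripts held 38.5% and 35.0%. Long noncoding transcripts and TEC models, GENCODE's label for loci that await experimental support, numbered 116 and held 3.96% and 3.71%. Retained introns and processed transcripts numbered 122 and held 3.03% and 3.28%. The 36 small RNA models held 1.66% and 1.35%, the 6 copies of mitochondrial genes 1.06% and 1.27%, and the 28 other pseudogenes 0.564% and 0.437%.

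The models of the copies were short and close to their source. Their median annotated length was 604 bases and their median identity 99.66%, with a median of 2 mismatches, and 60 were identical over the aligned part. GENCODE labels 215 of them pseudogenes and 30 protein coding. On another chromosome than the matched gene lay 241, as a copy that moved through RNA can. The 255 copies matched 188 spliced genes. Ribosomal protein genes were the source of 93 copies, from 60 genes, with 2107 and 2670 reads. Nuclear genes of the respiratory chain and ATP synthase were the source of 12 copies, from 10 genes, with 1299 and 1668 reads.

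Gapdh had the most reads on copies of any spliced gene. Its 13 copies together held 1450 reads in replicate 1 and 1685 in replicate 2, while the spliced Gapdh gene held 12 and 12. Copies thus took 99.2% ± 0.080 (SD, n = 2) of the reads on copies and gene. Gm12671, identical to Gapdh, held 583 and 655 reads, and Gm12033, with 1 mismatch, held 304 and 368. Gm5559 held 268 and 295 reads, Gm7336 held 201 and 256, and Gm13394 held 72 and 82. The other 8 copies held at most 13 reads in a library, among them Gm10359, also identical to Gapdh, with 7 and 13. Gapdh-ps15, which lies on the Y chromosome, had 1 read in each library although the labels give the mice as female. Reads on a copy are placed there by the authors' alignment, and where 2 sites have the same sequence their reads cannot be told apart. Over all genes, copies identical over the aligned part held 3087 and 3794 reads, and those of 99% to under 100% identity 5302 and 6355. Whether reads on a near-identical copy came from the copy or from the spliced gene was not tested.

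Hspa8 and its copy took almost equal numbers of reads. Gm15459, the highest single-exon transcript of all at 1381 ± 35.3 CPM (SD, n = 2), held 1206 and 1256 reads, and the spliced gene 1253 and 1218. Ftl1-ps1, a copy of the ferritin light chain gene that GENCODE labels coding, held 282 and 278 reads against 299 and 276 for Ftl1. Gm10123, identical to the cyclophilin gene Ppia, held 184 and 271 reads against 177 and 247. Gm14303, identical to Rps29, held 166 and 186 against 151 and 209. In all these pairs the copy's share lay between 47.1% and 52.4% in each library.

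For other genes the spliced gene held more. Gm12338 held 401 and 463 reads against 729 and 992 for Cox7c. Gm11273 held 191 and 245 against 743 and 954 for Cox5b, another subunit of cytochrome c oxidase, and Gm14539 held 218 and 339 against 535 and 705 for Usmg5, a small ATP synthase subunit. A single copy of Oaz1, the polyamine-regulated antizyme gene, took 4.83% and 4.90% of the reads on the pair. Counted over all 188 genes, the spliced gene held more reads than its copies in both libraries for 155 and fewer in both for 25. The median share on copies was 11.0% in replicate 1 and 9.88% in replicate 2.

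Among the 25 genes with more reads on copies were several for ribosomal proteins. The 4 copies of Rpl21 held 107 and 126 reads against 7 and 7 for the gene. The 4 copies of Rpl35a held 83 and 123 against 7 and 21, the 3 of Rpl10 held 52 and 83 against 4 and 5, and the 4 of Rpl17 held 33 and 50 against 2 and 5. The list of genes named as ribosomal protein pseudogenes had a transcript among the 819 for 42 of its 300 genes, at a summed 1161 and 1400 CPM. Rpl3-ps1 led it at 234 ± 2.38 CPM, followed by Rps2-ps13 at 196 ± 13.1 CPM (SD, n = 2).

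**Figure D2:**
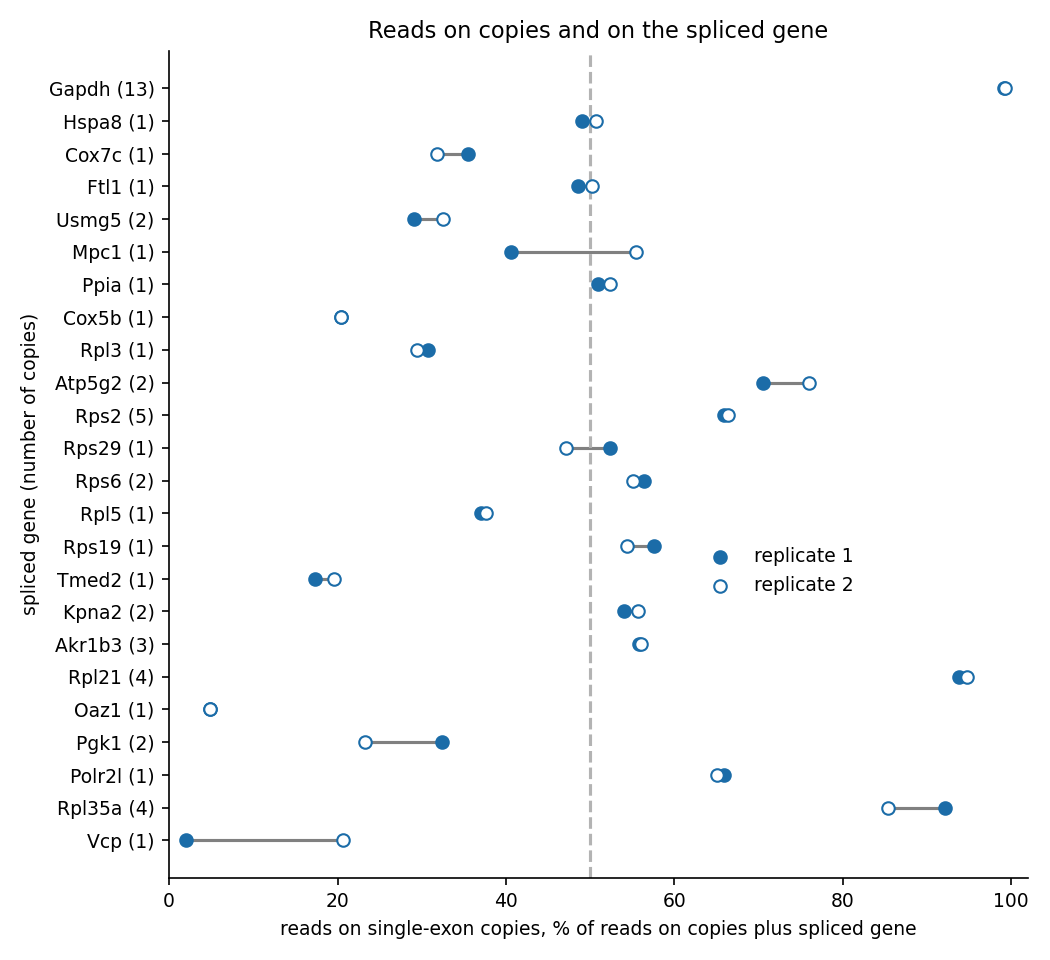
For the 24 spliced genes with most reads on single-exon copies, the reads on copies as a percent of the reads on copies plus gene, in replicate 1 (filled) and replicate 2 (open). The dashed line marks 50%. Most genes sit at nearly the same share in both libraries, and Vcp and Mpc1 are the widest apart, at 1.95% and 20.6% and at 40.6% and 55.5%.

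Closer copies held more reads per copy. The 60 identical copies had a median of 19.5 and 20.0 reads, the 146 with 99% to under 100% identity a median of 7 and 8, and those under 98% a median of 2 and 2. As a description across 65 pairs with at least 20 reads on copy and gene in each library, the log2 ratios between the libraries of copy and gene correlated with a Pearson r of 0.41 and a Spearman rho of 0.29. These points share the libraries, their totals and, within a pair, the sequence and the length.

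Copies of mitochondrial genes are stretches of the mitochondrial genome carried in the nucleus. Of the 6, 5 lie next to each other on chromosome 1, between positions 24612775 and 24616197. Gm10925, identical to mt-Atp6, held 40 and 76 reads against 39 and 57 for the mitochondrial gene. Gm28437, identical to mt-Co3, held 41 and 61 against 60 and 67, and Gm28661, identical to mt-Co2, held 34 and 31 against 36 and 39. Gm29216, with 1 mismatch to mt-Co1 over 492 bases, held 65 and 76 against 1015 and 1154. Gm13340 on chromosome 2 matched mt-Co1 with 37 mismatches over 1545 bases, and held 3 and 2 reads.

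The 256 coding transcripts that are no copy included many regulators, receptors and channels. Jund, a member of the AP-1 transcription factors, led it with 696 and 585 reads, at 721 ± 127 CPM (SD, n = 2). The bZIP factor Cebpb held 505 and 185 reads. Cldn5, which seals the junctions between endothelial cells, held 226 and 264. In whole tissue, fewer cells of a type and less RNA per cell cannot be told apart. The RNA-binding protein gene Pcbp1 held 207 and 228, the coactivator-binding Cited4 held 156 and 212, and Sephs2, which makes the selenium donor for selenoproteins, held 172 and 179.

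**Figure D3:**
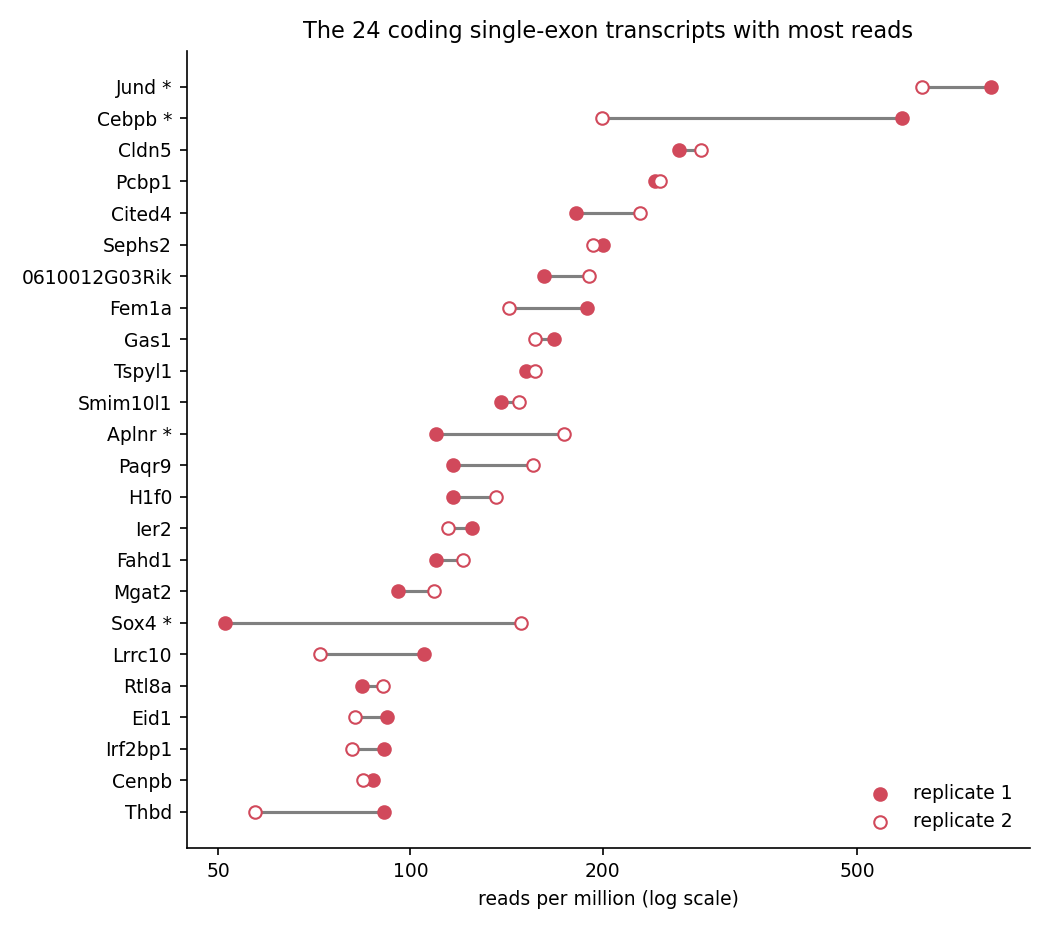
The 24 coding single-exon transcripts with most reads, copies of spliced genes left out, in CPM on a log axis in replicate 1 (filled) and replicate 2 (open). An asterisk marks transcripts that differed between the libraries by the exact binomial test, and Cebpb and Sox4 show the widest gaps, at 589 and 200 CPM and at 51.3 and 149 CPM.

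Transcription factor families were represented by a few members each. Counts of listed genes here are of those with a transcript among the 819, and further genes of a list can have spliced forms or reads in 1 library only. Of 19 listed AP-1 and immediate early genes, 8 had such a transcript, with a summed 1119 and 884 CPM. After Jund came Ier2 with 107 and 106 reads, Jun with 52 and 32, and Junb with 33 and 24. The C/EBP factors with such a transcript, 3 of 6 listed, are bZIP regulators of differentiation and inflammation: Cebpb, Cebpd with 57 and 39 reads, and Cebpa with 7 and 8. Among SOX factors, Sox4 held 44 and 138 reads and Sox12 held 16 and 15. Of 19 forkhead factors, 7 had annotated reads and 4 a transcript among the 819, led by Foxc1 with 8 and 17 reads, and Foxd3 had 1 read in each library. The 3 highest after Cited4 in the list of other factors were Irf2bp1, a corepressor, with 78 and 75 reads, the Notch feedback regulator Nrarp with 38 and 46, and Purb with 31 and 44.

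The receptors and channels named next held fewer reads than Jund and Cebpb in each library. The apelin receptor Aplnr, found on endothelium, held 94 and 161 reads. The 5 endothelial markers summed to 475 and 492 CPM. The beta-adrenergic receptor Adrb1, which raises heart rate and force, held 23 and 21 reads. Of 10 Wnt receptors of the Frizzled family, 9 had annotated reads and 4 a transcript among the 819, Fzd1 with 26 and 32 reads, Fzd2 with 10 and 9, Fzd8 with 8 and 7, and Fzd9 with 2 and 1. Kcnj11, the pore of the ATP-sensitive potassium channel, held 49 and 57 reads in its single-exon form, or 81.7% and 86.4% of its gene. Kcna5, another potassium channel gene, held 45 and 16 reads. Lrrc10, a cardiac protein of the sarcomere's Z-disc, held 90 and 67.

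Histones and stress genes followed. The linker histone gene H1f0 held 100 and 126 reads. Of 70 replication-dependent histone genes, 7 had a transcript among the 819, at a summed 164 and 195 CPM, led by Hist3h2a with 41 and 44 reads and Hist1h4h with 30 and 53. All 16 heat shock genes listed had annotated reads, and 6 had a transcript among the 819. Dnajc30 held 33 and 46 reads and Hspa2 held 31 and 31, while the stress-inducible Hspa1b held 4 and 2 and Hspa1a 3 and 2. Hspa1a and Hspa1b are near-identical neighbours, so their split is uncertain. Mgat2, a Golgi enzyme that builds N-glycans, led the 9 of 49 transferases with a transcript among the 819, with 82 and 101 reads.

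Long noncoding RNAs were few in reads. The highest were Gm47644-202 with 74 and 73 reads, 2900097C17Rik-202 with 52 and 51, and Gm43672 with 52 and 43. Gm47644-202 lies within another gene on the same strand but is not wholly contained in an exon of it. Malat1, an abundant nuclear RNA, held 20 and 24 reads and Neat1, the scaffold of paraspeckles, 18 and 11 on its single-exon form Neat1-201 of 20771 bases. Kcnq1ot1, the imprinted RNA of the Kcnq1 locus and with 93092 annotated bases the longest transcript here, held 5 and 6. A count on a model does not say how much of it the reads cover, since the tables give no read ends.

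Many small RNA models lay inside the exons of longer genes. Of the 36, 18 were contained in an exon of another gene on the same strand and held 235 of the 288 reads in replicate 1 and 198 of 265 in replicate 2. Gm28006, a model of 122 bases, lies at bases 442 to 563 of Neat1-201 and held 173 and 137 reads. The models of Neat1 outside the genomic class held 28 and 18. As Gm28006 lies inside an exon of Neat1, whether its reads extend beyond it into Neat1 cannot be told from these counts. The same holds for the other models inside exons. The sequence of Gm28006 is shown because more reads were placed on it than on the models of Neat1 outside the genomic class.

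Gm28006, chr19:5844916-5845037, minus strand: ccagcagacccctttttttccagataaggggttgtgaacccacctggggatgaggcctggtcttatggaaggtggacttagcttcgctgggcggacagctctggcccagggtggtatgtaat

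The stretch holds no AATAAA or ATTAAA and no run of A longer than 2 bases. Gm27533 and Gm27505, in other exonic parts of Neat1, held 6 and 4 reads and 4 and 1. Gm22714, a ribozyme model of 78 bases, held 12 and 23 reads, against 6 and 12 on Cpeb3 outside the genomic class. It lies within Cpeb3 but is not wholly contained in an exon of it. The microRNA model Mir546, in an exon of Ctdsp2, held 11 and 12 reads. Mir133a-2, a precursor of a muscle microRNA, had 1 read in each library and lay in no other gene on its strand.

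In 213 cases the gene of the single-exon transcript also has annotated spliced forms. Among the 64 coding ones the median share of the gene's reads on the single-exon form was 90.7% in replicate 1 and 97.9% in replicate 2. Among the 113 retained introns it was 5.94% and 6.25%. Trdn-204, a retained intron of triadin, which anchors calcium release in heart muscle, held 56 of 346 reads of its gene and 90 of 440. Pgp-202 held 54 of 218 and 51 of 204, and Ss18l2-207 held 42 of 101 and 52 of 134. Klhl33-203 held 27 of 28 and 31 of 34.

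Many of these transcripts ended where a spliced form ends. Of the 213, 86 (40.4%) had their annotated 3′ end within 100 bases of the 3′ end of a spliced form of the gene, and 28 at the same base. For retained introns it was 43 of 113 (38.1%), against 252 of the 2220 annotated single-exon retained introns of genes with a spliced form that were not read in both libraries (11.4%). The median share of the gene was 10.7% for the retained introns that shared an end and 5.24% for the others. Trdn-204 ends 4 bases and Ss18l2-207 8 bases from a spliced form's end.

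The classes differed in the polyadenylation hexamer, the signal that precedes the cut at the end of most messenger RNAs. AATAAA or ATTAAA on the transcript strand stood in the last 50 annotated bases of 71.5% of the 256 coding transcripts, 63.8% of the long noncoding and TEC models, and 45.9% of the retained introns and processed transcripts. Among spliced annotated transcripts read in both libraries it was 73.6% of 13746 with a sequence. It was 13.3% for copies of spliced genes. Single-exon coding models that were not read in both libraries held a hexamer in 23.3% of 2513 cases, and the coding ones that were read in both, copies included, in 70.6% of 286. Processed pseudogenes held one in 3.62% when read in both and 2.46% when not. Only annotated bases were searched, so a hexamer beyond the annotated end of a model is not counted. The part of this in the low shares of copies and of unread coding models was not tested.

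Between the libraries, few single-exon transcripts differed. By the exact binomial test, 393 had the 10 reads needed and 8 passed an adjusted p of 0.05 (2.04%), against 118 of 9090 annotated transcripts (1.30%). Higher in replicate 2 were 5, against a background of 0.616%, and lower were 3, against 0.682%. Transcripts read in 1 library only were outside the rule, so they could not add to these counts. The median log2 ratio of replicate 2 over replicate 1 was 0.097 for the 393 and 0.0047 for all 9090.

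Of the 169 coding transcripts tested, 5 were called (2.96%, against 1.30% of all annotated transcripts): Cebpb, Sox4, Kcna5, Jund and Aplnr. Cebpb fell from 589 to 200 CPM, a log2 ratio of -1.56 (95% interval -1.81 to -1.31, adjusted p = 5.8e-37, exact binomial test). Sox4, a developmental SOX factor, rose from 51.3 to 149 CPM, a log2 ratio of 1.54 (1.04 to 2.06, adjusted p = 3.0e-08, exact binomial test). Kcna5 was lower in replicate 2 by a log2 ratio of -1.60 and Jund by -0.36, with adjusted p-values of 0.0076 and 0.0016 in the exact binomial test. Aplnr was higher by 0.67 and Gm14539 by 0.53, with adjusted p-values of 0.030 and 0.0043 in the exact binomial test. Their counts changed by at most 2 reads when reads of any class on overlapping models were added. Gm14539 did not pass once the trend with length was subtracted (adjusted p = 0.55, exact binomial test), nor Aplnr when transcripts with fewer reads were tested too (adjusted p = 0.072, exact binomial test).

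The calls of Vcp-rs and Mpc1-ps did not hold in that wider count. Vcp-rs held 12 reads in replicate 1 and 176 in replicate 2, a log2 ratio of 3.76 (2.92 to 4.74, adjusted p = 1.8e-32, exact binomial test). In replicate 1, however, 161 more reads lay on an unannotated single-exon model of the genomic class that shares 1 base, the 3′ end, with Vcp-rs. With all classes counted the locus held 182 and 186 reads, a log2 ratio of -0.079 (-0.38 to 0.22), with an adjusted p of 0.98 in the exact binomial test. Mpc1-ps held 168 and 370 reads, a log2 ratio of 1.03 (adjusted p = 2.1e-12, exact binomial test). Replicate 1 alone had a further 174 reads on a model classed as antisense that shares 1 base at the 3′ end with it, and the totals were 342 and 370, a log2 ratio of 0.0027. Spliced Vcp held 603 and 677 reads and spliced Mpc1 246 and 297.

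The same arrangement was found at 5 more of the 819 transcripts. An unannotated single-exon model with at least 20 reads shared 1 base with Gm6969, Got2-ps1, Pgk1-rs7 and Gm42418 in both libraries, and with Gm10138-202 in replicate 1 only. The shared base was the 3′ end in all the copies, and the 5′ end in Gm42418 and Gm10138-202, which are no copies. At Got2-ps1, a copy of an aspartate aminotransferase gene, the adjoining model held 82 and 87 reads and the annotated one 7 and 8. At Pgk1-rs7, a copy of a glycolytic kinase gene, it held 39 and 81 reads, and the annotated model 76 and 55.

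**Figure D4:**
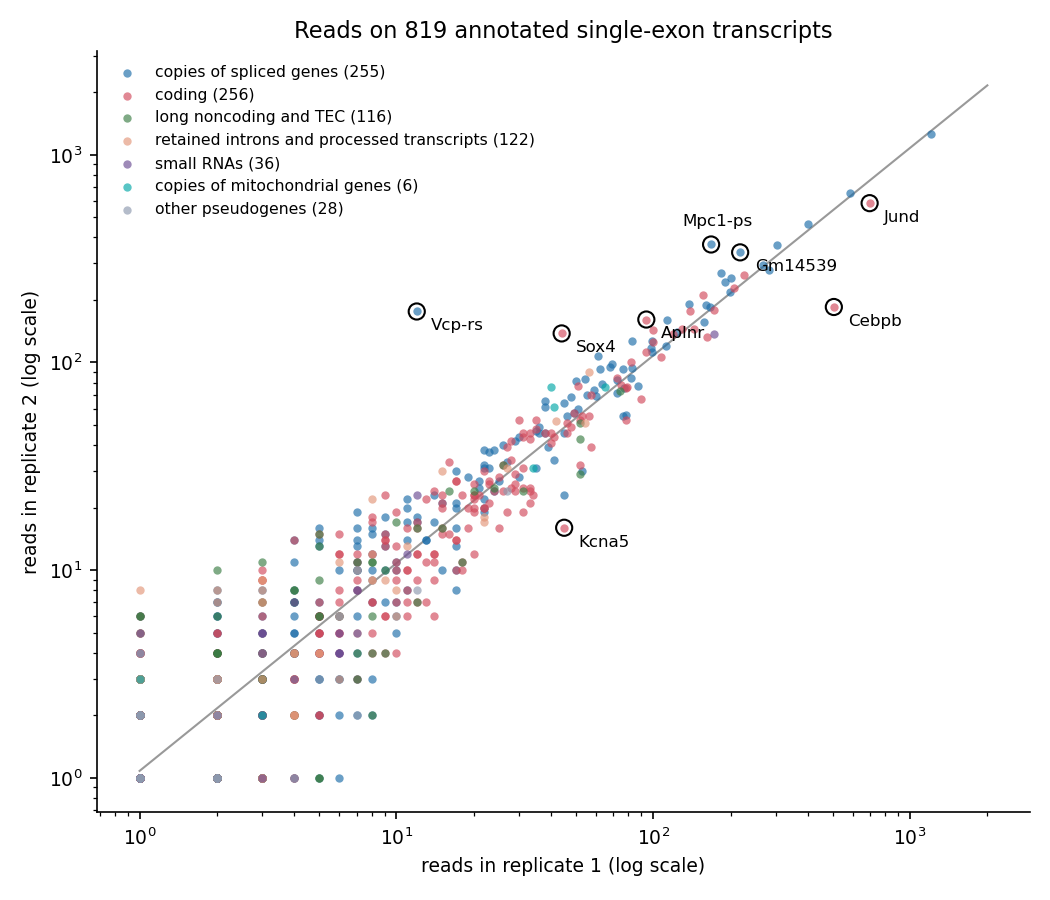
Reads of the 819 single-exon transcripts in replicate 1 and replicate 2 on log axes, coloured by class. The grey line marks equal CPM, and circles mark the 8 transcripts that passed the exact binomial test, with Vcp-rs at 12 and 176 reads furthest from the line.

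Short transcripts leaned towards replicate 2. The median log2 ratio was 0.25 for the 78 tested single-exon transcripts under 500 bases and 0.24 for the 72 of 500 to 999 bases, with 56 and 52 of them higher in replicate 2. It was 0.028 for 94 transcripts of 1000 to 1999 bases, -0.031 for 96 of 2000 to 3999 bases and -0.11 for 53 of 4000 bases or more. Spliced annotated transcripts of the same lengths had medians of 0.26, 0.21, 0.027, -0.047 and -0.040. Copies of spliced genes had a median of 0.21 over 146 tested, and coding transcripts, longer by median length, -0.037 over 169. Small RNA models, the class with the shortest median length, went the other way, at -0.41 over 10 tested. Over 4 tested each, copies of mitochondrial genes had a median of 0.29 and other pseudogenes -0.20. The list of ribosomal protein pseudogenes had a median of 0.39 over 29 tested, with 0 called.

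**Figure D5:**
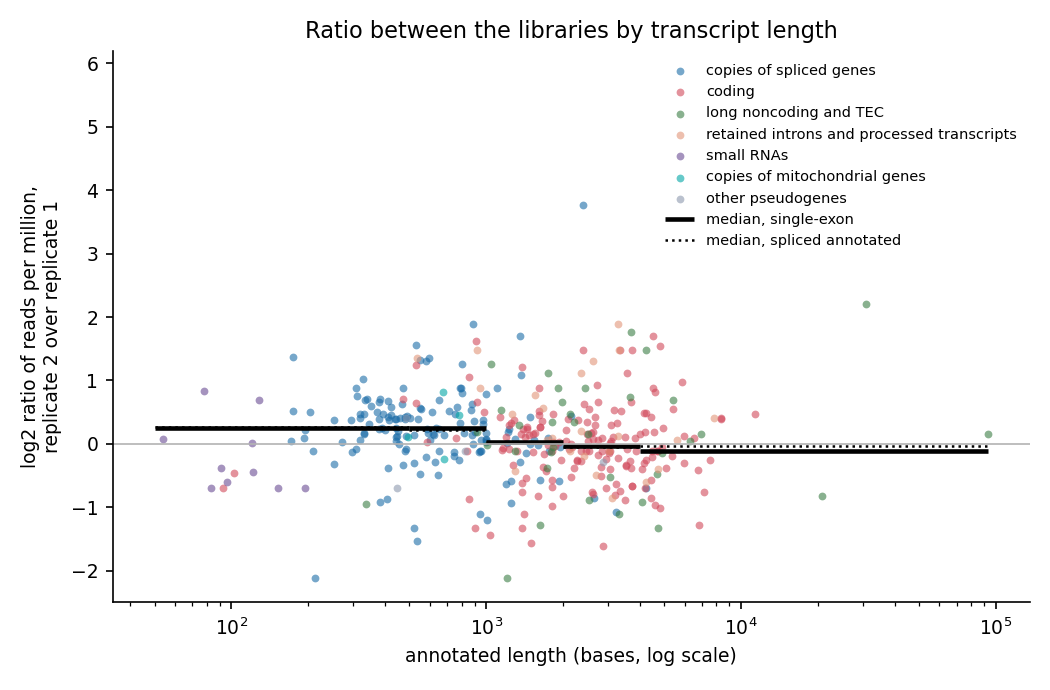
Log2 ratio of CPM, replicate 2 over replicate 1, against annotated length on a log axis, for the 393 single-exon transcripts with at least 10 reads in all. Solid lines are medians of single-exon transcripts in 5 length ranges and dotted lines those of spliced transcripts; both fall from about 0.25 below 500 bases to below 0 at 4000 bases or more.

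Within genes, no shift between the libraries passed the tests. The share of genomic-class reads was compared by Fisher's exact test in 259 genes of these transcripts with at least 20 reads in each library. None passed, against 112 of 5382 annotated genes (2.08%), and 2 had an unadjusted p under 0.05. The lowest adjusted p, 0.063 in Fisher's exact test, was that of Txnip, a thioredoxin-binding protein gene, with 0 genomic reads of 90 in replicate 1 and 12 beside 109 other reads in replicate 2. The single-exon form's share of its gene was compared in 103 cases by Fisher's exact test, and again 0 passed, against 21 of 10204 (0.206%), with 2 at an unadjusted p under 0.05. Genes without a spliced form had 0.465% and 0.486% of their reads in the genomic class, and genes with one 1.72% and 1.55%.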

How the data were processed

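Long-read RNA sequencing libraries of mouse heart were analysed from the deposited tables of read counts per transcript model, whole numbers that the authors made from alignments on mm10 with GENCODE M21, per the deposited text. Per the file headers, models were built and named by TALON. The deposited model files give starts and ends, which were used as coordinates. For the aligner, the filters and their versions, nothing is given in the sources used here. The 2 libraries held 896941 and 972159 reads, of which 12223 and 12825 were on spike-ins and 26647 and 32774 were of the genomic class. Each annotated length equalled that in GENCODE M21.

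Reads per transcript were compared with the exact binomial test (two-sided, from the library totals), over all annotated transcripts with at least 10 reads in all. Shares within genes were compared with Fisher's exact test (two-sided), over genes with at least 20 reads in each library. Reads given for a gene leave out the genomic class unless it is named. Benjamini-Hochberg adjustment ran over all features tested, with a threshold of 0.05. The tests compare these libraries, not conditions, and were tested on simulated data. Copies were found with blastn 2.17.0 (plus strand, best bit score) against spliced protein-coding and mitochondrial transcripts of GENCODE M21. Counts of overlapping reads take any model on the strand whose span from start to end, introns included, meets the transcript. A spliced model whose intron holds the transcript is thus counted too. Other tools were Python 3.11.15, scipy 1.17.1, pandas 2.3.3 and, for TMM totals, edgeR 4.0.16.

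The transcripts, gene lists and tests were chosen with earlier results of these data known. Transcripts were named by rule: the 25 highest, the 4 highest of each list, those called, those called whose genomic share moved most, the 3 highest of each GENCODE type, those with the highest or nearest to 50% share of their gene, and the longest and shortest. Matched genes, families of copies and the loci with adjoining models, as well as Klhl33-203, Txnip, Mir133a-2, Gm27505 and Hspa1a, were chosen after their values were seen. A few items are not reported here.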

Additional observations from a re-analysis of the deposited data

Results flagged for a closer look

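Annotated single-exon transcripts with more than 3 reads in 1 library and 0 in the other numbered 17, of 796 read in 1 library only. Of these 17, only Mir467f had the 10 reads that the exact binomial test needs, and its outcome is not given here. For the others counting error was not tested, and no difference is claimed. Those reported here are named. The highest was Mir467f with 16 reads in replicate 1. Others of replicate 1 were 4930403P22Rik with 7, Gm49463 and Spin4 with 5 each, and Gm37676, Gm5812 and Smim20-206 with 4 each. In replicate 2 they were Pstk-211 with 6, 2010111I01Rik-211, Gm9830, Kctd11 and Qsox1-208 with 5 each, and Fzd7, Gm6598, Mir705 and Rxrb-204 with 4 each. Counting reads of any class on overlapping models, Mir467f still held 16 and 0, whereas the locus of Mir705 held 44 and 75 and that of Rxrb-204 held 90 and 82.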

How the results depend on the processing

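The 8 calls between the libraries stayed at 8 with TMM totals, with annotated reads as totals and with a minimum of 20 reads, and all 8 were among the calls there and with whole genes counted. The count was 13 with whole genes and the genomic class counted, over 492 genes. It was 7 of 819 with no minimum, where Aplnr was lost, against 95 of 21495 annotated transcripts. With the length trend subtracted it was 9 of 393, against 95 of 9090. There Gm14539 was lost and Gm28006 (log2 ratio -0.74) and 2900097C17Rik-201 (-1.14) passed. Counting any class on overlapping models, chosen after seeing the data, gave 12 calls among 533 tested, against 335 of 17367 annotated transcripts. Among the 12 were 6 of the 8, without Mpc1-ps and Vcp-rs (-0.079), and Neat1-201 (-0.50) was newly past the threshold. Ratios also changed sign in transcripts not called. With the length trend subtracted these were Gm12671 (-0.022), Gm12338 (-0.15), Gm5559 (-0.052), Rpl3-ps1 (-0.040), Gm14303 (-0.20), Gm29216 (-0.036), Hist2h2aa1 (-0.11), Mir546 (-0.28) and Mir7219 (-0.29). With overlapping models they were Hs6st1-202 (-0.22), Mir7219 (-0.033), Peg13 (from -1.33 to 0.0088) and Gm27389 (from -0.70 to 0.40). Peg13 and Gm27389 lie within another gene, whose spliced reads can be part of these totals. Hs6st1-202 was also at -0.41 and -0.22 with whole genes, and Mir546 at -0.0046 with TMM totals. The cause was not tested.

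The percent of reads was 2.65% of annotated reads, and 1.95% for transcripts with at least 5 reads in each library. Without replicate 1 it was 2.12% and without replicate 2 it was 2.03%. At least 3, 5 or 10 reads in each library left 446, 351 and 243 transcripts. With at least 50 reads of the gene, 1 gene passed for genomic share, Txnip. No paired analysis was possible because there was 1 group. Stricter and looser limits for copies, added after seeing the data, kept their number within 1.5 times of 255.

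Depth limits most of these transcripts: 267 of 819 had 1 read in at least one library, and 426 were under the 10 reads the test needs. Sequence identity limits the copies, as reads on identical copies cannot be assigned from these tables. The origin of the reads on near-identical copies was not tested.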
